A study of Homo sapiens with 24 samples.

Results

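The integrin and laminin subunit genes are the protein-coding genes whose GENCODE symbol is ITGA or ITGB followed by a number or a letter code, or LAMA, LAMB or LAMC followed by a number. The rule used no measured value and gave 38 of the 57736 genes in the count table, namely 18 integrin alpha, 8 integrin beta and 12 laminin genes. Genes that only share these letters, such as ITGB1BP1 and ITGB3BP, and antisense RNAs were not members.

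Integrins are receptors of the plasma membrane, each made of 1 alpha and 1 beta chain, that bind matrix proteins outside the cell and link them through talin and kindlin to the actin cytoskeleton. Laminins are large secreted trimers of 1 alpha, 1 beta and 1 gamma chain that build basement membranes. ITGA3, ITGA6 and ITGA7 encode the alpha chains of the main laminin receptors, so both sides of that contact are within the gene set. In glioblastoma, integrins are known for their part in the attachment and spread of tumour cells along vessels and brain matrix.

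U87-T is a human glioblastoma line, U87, that carries a TERT transgene. WT cells are U87-T cells, which the study's methods give as holding an empty Cas9 vector, and DAXX_KO and ATRX_KO are CRISPR knockout lines made from U87-T cells and each expanded from 1 clone with features of ALT, the telomerase-independent way of keeping telomeres. RNA-seq covered 24 libraries in 2 series. The DAXX series held WT and DAXX_KO cells and the ATRX series WT and ATRX_KO cells, each untreated (control) and treated with etoposide, a topoisomerase II inhibitor that breaks DNA, with 3 libraries in each of the 8 groups. Every library thus carries the TERT transgene. Each knockout is 1 line, so an effect of the knockout and an effect of the clone cannot be told apart. The study states in general that its experiments had biological replicates, and the labels do not say whether the 3 libraries of a group were separate cultures. P-values measure the spread between these libraries, which may be technical if they were not.

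The libraries held 6928950 to 13298557 counts each. DAXX mRNA was 33.9 ± 1.24 CPM in WT and 5.83 ± 1.06 CPM in DAXX_KO, and ATRX mRNA 192 ± 4.63 CPM in WT of the ATRX series and 80.6 ± 6.08 CPM in ATRX_KO (SD, n = 3). CPM is the count of a gene relative to the library total, on the scale of edgeR's TMM method. The libraries read the 3′ ends of transcripts, so CPM was not divided by gene length, and it ranks genes only as far as their 3′ ends are read alike. A count of 0 allows up to 3 counts in a library, which is 0.217 to 0.405 CPM, and this limit covers counting error only. The 5 markers of U87 cells (VIM, NES, CD44, S100A6 and TNC) summed to 4799 to 12587 CPM. The 9 markers of leukocytes and platelets summed to 3.73 to 9.75 CPM, and CD3E, SPI1 and PF4 never passed 3 counts. The 4 epithelial markers summed to at most 3.81 CPM, and KRT5 never passed 3 counts. Of 3 endothelial markers, CDH5 and VWF were matched and summed to at most 1.30 CPM.

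Promoter sequences are shown for LAMA3, LAMB3, ITGA2 and ITGA6, of which the first pair rose and the other pair fell in DAXX_KO. RefSeq windows (build GRCh38.p14) were found for 26 members, 33 windows in all, and the 250 bases before each start were searched on both strands. The AP-1 motif TGAGTCA, the site of FOS and JUN dimers, lay in 2 of the 33 windows, that of LAMA3 and 1 of 3 of LAMB3, and in 4.20% of all 35116 windows. The LAMB3 window shown was picked because it held this motif, and the ITGA6 window because it was listed first. The windows shown are therefore no comparison of the pairs for this motif. The GC box GGGCGG lay in 17 of the 33 and in 42.6% of all windows. The half-site of p53, the transcription factor of the DNA damage response, lay in 0 of the 33 and in 5.57% of all windows. The sequences below were located in GRCh37 by an exact match and are written 5′ to 3′ on the strand of the gene, with AP-1 motifs and GC boxes in capitals.
LAMA3, chr18:21452734-21452983, plus strand: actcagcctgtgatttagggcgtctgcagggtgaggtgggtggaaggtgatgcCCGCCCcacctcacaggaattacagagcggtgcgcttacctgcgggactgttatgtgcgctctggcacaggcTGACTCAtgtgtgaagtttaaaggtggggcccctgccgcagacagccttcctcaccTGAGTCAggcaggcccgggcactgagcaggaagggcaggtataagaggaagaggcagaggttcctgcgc
LAMB3, chr1:209824740-209824969, minus strand: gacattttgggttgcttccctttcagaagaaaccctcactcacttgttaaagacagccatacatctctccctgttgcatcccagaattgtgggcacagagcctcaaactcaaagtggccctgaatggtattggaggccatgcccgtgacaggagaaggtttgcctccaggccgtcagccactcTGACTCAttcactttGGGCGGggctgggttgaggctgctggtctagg
ITGA2, chr5:52284932-52285169, plus strand: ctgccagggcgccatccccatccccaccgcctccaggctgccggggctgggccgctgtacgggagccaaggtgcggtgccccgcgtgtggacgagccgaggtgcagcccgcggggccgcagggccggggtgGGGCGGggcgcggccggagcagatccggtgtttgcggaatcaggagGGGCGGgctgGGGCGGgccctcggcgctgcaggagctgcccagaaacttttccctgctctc
ITGA6, chr2:173291814-173292063, plus strand: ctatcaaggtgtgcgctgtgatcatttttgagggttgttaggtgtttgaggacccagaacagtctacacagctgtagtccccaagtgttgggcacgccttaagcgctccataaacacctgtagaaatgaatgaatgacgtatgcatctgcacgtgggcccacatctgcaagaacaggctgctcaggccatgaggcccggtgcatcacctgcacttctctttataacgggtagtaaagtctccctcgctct
In LAMA3 the AP-1 motifs end 118 and 62 bases before the start, and in LAMB3 the motif ends 60 bases before it. The LAMB3 sequence stops 20 bases and the ITGA2 sequence 12 bases before the start. The ITGA6 window shown holds none of the 3 motifs and the other ITGA6 window holds 3 GC boxes. Counts from 3′ ends do not tell which start a transcript used, and a match is a description of letters, not a bound site.

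Of the 38 members, 26 were tested in both series. LAMA3 was tested only in the DAXX series, and ITGA2B, ITGAD, ITGAM and ITGAX only in the ATRX series. ITGA4, ITGA8, ITGA9, ITGB2, ITGB7, LAMB4 and LAMC3 passed the filter on low counts in neither, with at most 14 counts in any library. LAMA3, ITGA2B, ITGAD, ITGAM and ITGAX passed that filter only through groups in which they were high. So did other members with few WT control counts, among them LAMA1 and ITGB6, which passed in both series. Calls of these genes as higher in such groups are therefore not independent of the filter. The counts below include LAMA3 as higher in DAXX_KO, ITGAD and ITGAX as higher in ATRX_KO, and LAMA1 as higher in both knockouts. They also include ITGB6 as higher with etoposide in each cell group. A gene was called at an FDR of 0.05 over all genes tested. In control cells, 20 of the 27 members tested were called in DAXX_KO against WT, 15 higher and 5 lower, where 53.4% of all genes tested were called (26.7% higher and 26.6% lower). In ATRX_KO, 16 of the 30 members tested were called, 10 higher and 6 lower, where 41.8% of all genes were called (20.8% higher and 21.0% lower). The median absolute log2 difference over the members tested was 0.94 in DAXX_KO, beside 0.44 over all genes tested, and 0.48 in ATRX_KO, beside 0.36. The laminin genes had a median log2 difference of 1.34 in DAXX_KO over 10 genes, with 7 higher and 1 lower, and of 0.49 in ATRX_KO over 9 genes, with 5 higher and 1 lower. Of the 26 members tested in both series, 19 were called in DAXX_KO and 14 in ATRX_KO. Both knockouts shared 12 of these calls. ITGA5, ITGB3, ITGB8, LAMA1, LAMA4, LAMB2 and LAMB3 were higher in both, ITGA1, ITGA3, ITGA6 and LAMA2 lower in both, and ITGB1 was called in opposite directions. Of all genes tested in both series, 23.4% were called in the same direction and 5.73% in opposite directions.

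**Figure D1:**
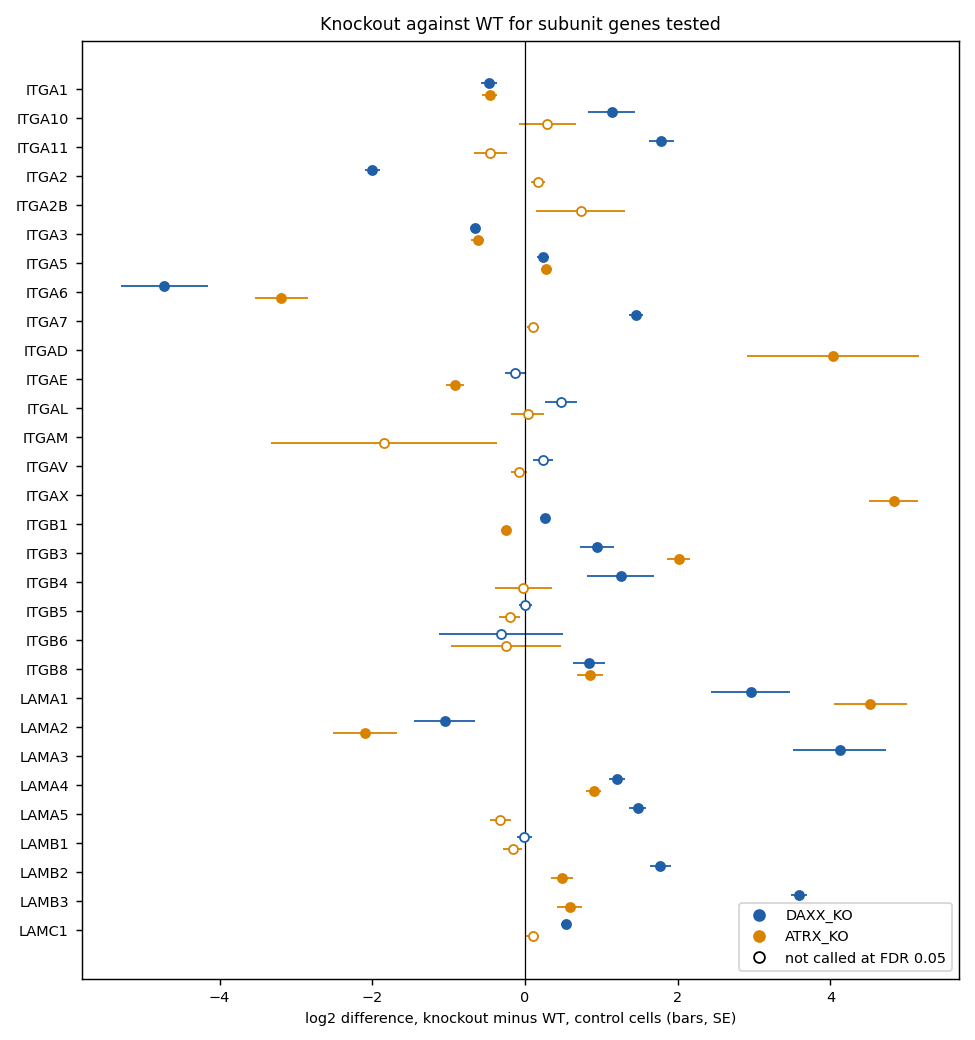
Log2 difference of knockout minus WT in control cells (x axis) for members tested (rows), with the SE from the edgeR fit; blue points are DAXX_KO and orange points ATRX_KO, and filled points passed an FDR of 0.05. ITGA6 is the lowest point in both knockouts, LAMA3 (4.12) and LAMB3 (3.59) are the highest in DAXX_KO and ITGAX (4.83) in ATRX_KO, and the points of ITGAD, ITGAM, ITGAX, LAMA1 and LAMA3 rest on few WT counts.

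Between cells that had etoposide, 20 of 27 members were called in DAXX_KO against WT, 16 higher and 4 lower, where 53.0% of all genes were called (27.9% higher and 25.2% lower). In ATRX_KO against WT 18 of 30 were called, 10 higher and 8 lower, where 45.9% of all genes were called (23.0% higher and 22.9% lower). For the response to etoposide, 16 of 27 members were called in WT of the DAXX series, 5 higher and 11 lower, where 60.2% of all genes were called (29.6% higher and 30.6% lower). In WT of the ATRX series, 20 of 30 were called, 10 higher and 10 lower, where 61.5% of all genes were called (31.7% higher and 29.8% lower). The response was called for 13 of 27 members in DAXX_KO, 3 higher and 10 lower, where 54.5% of all genes were called (26.8% higher and 27.8% lower). It was called for 16 of 30 in ATRX_KO, 7 higher and 9 lower, where 49.5% of all genes were called (24.3% higher and 25.2% lower). The response differed between knockout and WT, as an interaction, for 5 of 27 members in the DAXX series, 4 higher in the knockout and 1 lower, where 14.2% of all genes were called (8.38% higher and 5.79% lower). For the ATRX series it was 7 of 30, 3 higher and 4 lower, where 16.0% of all genes were called (8.36% higher and 7.64% lower). Without WT etoposide replicate 1, the ATRX count was 3, and it was 4 without WT etoposide replicate 3 or without WT control replicate 1 or 2. The knockout differences of control cells were called different between DAXX_KO and ATRX_KO for 13 of 32 members, 9 higher and 4 lower in DAXX_KO, where 34.1% of all genes were called (17.0% higher and 17.2% lower). The members' shares were not tested against those of all genes.

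**Figure D2:**
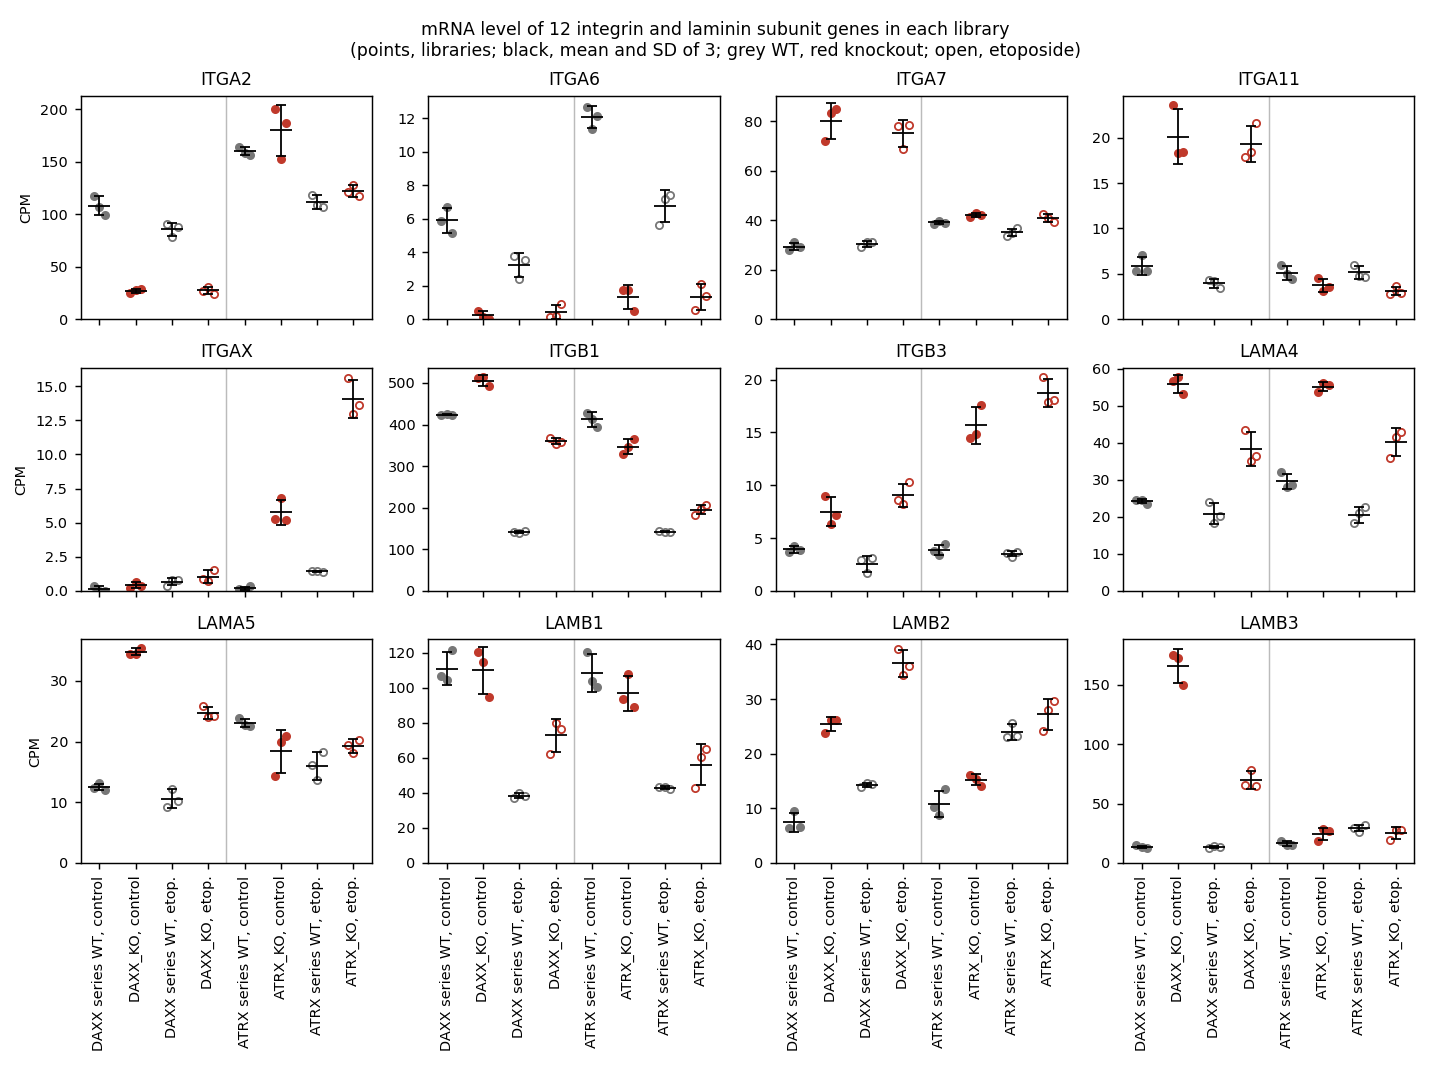
Level of 12 members in each library (y axis, CPM, linear from 0) over the 8 groups (x axis); points are libraries, black bars the mean and SD of 3, grey is WT, red is knockout, and open points had etoposide. LAMB3 stood at 149.6 to 175 CPM in DAXX_KO control libraries against 13.0 to 14.7 in WT, and ITGB1 and LAMB1 fell with etoposide in each of the 4 cell groups, less so in the knockouts.

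The collagen receptors have the alpha chains ITGA1, ITGA2, ITGA10 and ITGA11, which all pair with ITGB1. ITGA2 fell in DAXX_KO, and ITGA11 and ITGA10 rose there. In the DAXX series, ITGA2 was at 118, 107 and 99.7 CPM in the WT control libraries and at 25.0, 27.7 and 28.3 CPM in DAXX_KO. The groups did not overlap, with a log2 difference of −2.00 (SE 0.10, adjusted p = 3.56e-12). ITGA2 in the ATRX series was at 164, 159 and 157 CPM in WT and at 200.1, 153 and 187 CPM in ATRX_KO, and the ranges overlapped, with a log2 difference of 0.17 (SE 0.09, adjusted p = 0.132). The knockout differences themselves differed by −2.17 (SE 0.13, adjusted p = 1.60e-12). ITGA11 was at 5.25, 7.02 and 5.29 CPM in WT of the DAXX series and at 23.6, 18.3 and 18.4 CPM in DAXX_KO, a log2 difference of 1.78 (SE 0.16, adjusted p = 2.08e-08). In ATRX_KO, at 4.52, 3.10 and 3.58 CPM against 5.91, 5.01 and 4.40 CPM, it was not called in control cells (log2 difference −0.46), and the difference between the knockouts was 2.24 (SE 0.26, adjusted p = 1.27e-07). With etoposide, ITGA11 was at 4.27, 4.17 and 3.38 CPM in WT and 17.9, 18.4 and 21.6 CPM in DAXX_KO, a log2 difference of 2.29 (SE 0.18, adjusted p = 2.40e-09). It was lower in ATRX_KO, at 2.76, 3.61 and 2.87 CPM against 6.01, 4.78 and 4.62 CPM in WT (log2 difference −0.73, adjusted p = 0.0127), a call lost without WT etoposide replicate 1 (−0.58). Of the 26 members tested in both series, ITGA11 was the 1 called in opposite directions in the knockouts with etoposide, beside 5.69% of all genes tested in both. Under etoposide ITGA2 was also lower in DAXX_KO, at 26.8, 30.8 and 24.2 CPM against 90.2, 78.7 and 87.4 CPM in WT (log2 difference −1.64, SE 0.10, adjusted p = 6.47e-11).

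ITGA10 was at 1.59, 2.19 and 2.16 CPM in WT and at 3.87, 5.67 and 3.49 CPM in DAXX_KO (log2 difference 1.13, SE 0.31, adjusted p = 0.00447). In ATRX_KO its log2 difference was 0.29 (adjusted p = 0.562), and a difference between the knockouts was not called (0.84, SE 0.47, adjusted p = 0.178). With etoposide ITGA10 was at 0.878, 1.31 and 1.62 CPM in WT and 3.78, 3.31 and 2.35 CPM in DAXX_KO, without overlap (log2 difference 1.30, SE 0.35, adjusted p = 0.00364). ITGA1 was lower by a log2 difference of −0.47 in DAXX_KO (SE 0.10, adjusted p = 5.97e-04) and in ATRX_KO (SE 0.09, adjusted p = 6.29e-04). Its libraries ran from 25.2 to 26.5 CPM in WT and 18.2 to 18.8 CPM in DAXX_KO, and from 31.6 to 35.4 CPM and 22.1 to 25.5 CPM in the ATRX series. PELO, a gene of ribosome rescue, lies on the same strand within ITGA1, so reads of the pair may be split between them, and PELO differed by −0.94 in DAXX_KO and −0.03 in ATRX_KO. ITGA2 fell with etoposide in WT of both series, by 0.34 and 0.52 on the log2 scale, and in ATRX_KO by 0.56, and stood at 0.02 in DAXX_KO. These responses of ITGA2 were not called different between DAXX_KO and WT, nor between ATRX_KO and WT.

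Laminin receptors use the alpha chains ITGA3, ITGA6 and ITGA7. ITGA6, which pairs with ITGB1 or ITGB4, fell furthest of the members tested in both knockouts. It was at 5.85, 6.68 and 5.16 CPM in WT control libraries and at 0.500, 0.132 and 0 CPM in DAXX_KO, the latter resting on 5 counts in all. The groups did not overlap, and the log2 difference was −4.72 (SE 0.56, adjusted p = 8.12e-07), with −6.25 without DAXX_KO control replicate 1 and −4.14 without replicate 3. The ATRX series had it at 12.7, 11.4 and 12.1 CPM in WT and at 1.74, 1.76 and 0.477 CPM in ATRX_KO, a log2 difference of −3.19 (SE 0.35, adjusted p = 1.20e-06). The difference between the knockouts was not called (−1.55, SE 0.83, adjusted p = 0.159). With etoposide, ITGA6 was at 2.38 to 3.76 CPM in WT and 0.122 to 0.896 CPM in DAXX_KO, and at 5.64 to 7.43 CPM in WT and 0.534 to 2.09 CPM in ATRX_KO. It remained lower in the knockouts by log2 differences of −2.92 and −2.29 (adjusted p = 1.01e-04 and 5.02e-05), with −4.14 in DAXX_KO without etoposide replicate 3. Its fall with etoposide in WT was called in both series (−0.88 and −0.84), but the first call was lost in 7 of 12 fits without 1 library (−1.01 to −0.70) and with RLE size factors (−0.85), and the other without WT replicate 1 of control (−0.80) or of etoposide (−0.74).

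ITGA7, a laminin receptor chain best known from muscle, rose in DAXX_KO. It was at 27.9, 31.0 and 29.1 CPM in WT and at 71.8, 83.5 and 85.1 CPM in DAXX_KO (log2 difference 1.45, SE 0.09, adjusted p = 8.56e-11). In ATRX_KO, at 41.1, 42.8 and 42.3 CPM against 38.6, 39.8 and 39.0 CPM, the log2 difference was 0.10 (adjusted p = 0.293), and the knockouts differed by 1.35 (SE 0.11, adjusted p = 3.34e-10). With etoposide ITGA7 was at 29.1, 31.2 and 31.2 CPM in WT and 78.1, 68.8 and 78.5 CPM in DAXX_KO (log2 difference 1.30, SE 0.09, adjusted p = 5.18e-10). The 3′ end of ITGA7 overlaps METTL7B on the other strand, and METTL7B differed by 0.59 (adjusted p = 0.00232) and −0.50 (adjusted p = 0.0208) in the knockouts of DAXX and ATRX. Whether the counting used strand was not stated, so reads of the pair cannot be told apart. ITGA3, an epithelial laminin receptor chain that pairs with ITGB1, was at 599.9, 585 and 538 CPM in WT of the DAXX series and at 358, 362 and 374 CPM in DAXX_KO. It was at 706, 637 and 640.3 CPM in WT of the ATRX series and at 429.6, 391 and 470.4 CPM in ATRX_KO. The log2 differences were −0.65 (SE 0.07, adjusted p = 1.64e-07) and −0.62 (SE 0.08, adjusted p = 1.55e-05), and the difference between them was −0.03 (SE 0.11). Etoposide lowered ITGA3 in the 4 cell groups, by 0.68 and 0.94 in WT, 0.57 in DAXX_KO and 0.70 in ATRX_KO on the log2 scale.

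ITGA5 and ITGAV encode alpha chains of receptors for the RGD motif of fibronectin and vitronectin. ITGA5 kept more of its level under etoposide in both knockouts than in WT. In the DAXX series it was at 97.9, 110.1 and 102 CPM in WT control libraries and 61.7, 60.5 and 67.7 CPM with etoposide, and in DAXX_KO at 114, 116 and 135 CPM and then 96.6, 91.8 and 103 CPM. The ATRX series had ITGA5 at 136, 127 and 125 CPM in WT and 71.8, 66.9 and 71.4 CPM with etoposide, and in ATRX_KO at 149.8, 152 and 169 CPM and then 135, 124 and 137 CPM. The interaction was 0.64 in the ATRX series (SE 0.11, adjusted p = 8.17e-04). In the DAXX series it was 0.38 (SE 0.12, adjusted p = 0.0313), and that call was lost in 6 of 12 fits that left out 1 library (0.33 to 0.46) and with scaling by library totals (0.27). The log2 response of ITGA5 itself was −0.71 and −0.89 in WT, −0.32 in DAXX_KO and −0.25 in ATRX_KO, the last not called with library totals (−0.18), with only the compared groups (−0.24) or in 2 of 12 fits without 1 library. In control cells ITGA5 was higher by 0.28 in ATRX_KO (adjusted p = 0.00635) and by 0.23 in DAXX_KO (adjusted p = 0.0187), the latter not called by DESeq2 (0.20) or without WT control replicate 1 (0.20) or 3 (0.22) or DAXX_KO control replicate 3 (0.16). ITGAV, at 15.5 to 26.0 CPM over all 24 libraries, was called in DAXX_KO with etoposide only, at 23.7 to 26.0 CPM against 15.5 to 19.6 CPM in WT (log2 difference 0.43, adjusted p = 0.00809), and not without WT etoposide replicate 3 (0.33). ITGA8, of the same class, had 0 to 9 counts in a library.

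ITGAL, ITGAM, ITGAX and ITGAD encode the alpha chains of the leukocyte integrins, which pair with ITGB2, and ITGAE pairs with ITGB7. ITGAX rose in ATRX_KO and again with etoposide. It was at 0.156, 0.0849 and 0.339 CPM in WT control libraries of the ATRX series, 7 counts in all, and at 5.31, 6.78 and 5.16 CPM in ATRX_KO. The log2 difference was 4.83 (SE 0.32, adjusted p = 3.91e-09), and 5.44 without WT control replicate 3. With etoposide ITGAX was at 1.48, 1.43 and 1.41 CPM in WT and 15.6, 12.9 and 13.6 CPM in ATRX_KO, a log2 difference of 3.28 (SE 0.22, adjusted p = 4.61e-09). Etoposide raised it by 2.84 in WT (SE 0.40, adjusted p = 1.11e-05), or 3.45 without WT control replicate 3, and by 1.29 in ATRX_KO (SE 0.18, adjusted p = 1.67e-05). The interaction of −1.55 (adjusted p = 0.0309) was lost with DESeq2 (−1.60), no filter (−1.55) or all 24 libraries in the fit (−1.51), and in 7 of 12 fits without 1 library (−2.17 to −1.22). In the DAXX series ITGAX had 4 counts in WT control and 10 in DAXX_KO and was not tested there. In the fit of all libraries, the difference between the knockouts of −3.37 (adjusted p = 0.0225) stood at 0.33 without WT control replicate 1 of the DAXX series, the only WT control library of that series with a count, and at −4.00 without WT control replicate 3 of the ATRX series.

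ITGAD and ITGAM lie next to ITGAX on chromosome 16 of GRCh37, ITGAM from 31271288 to 31344213, ITGAX from 31366455 to 31394320 and ITGAD from 31404656 to 31437826, all on the plus strand. ITGAD had 0, 1 and 0 counts in WT control libraries of the ATRX series and 8, 10 and 4 in ATRX_KO, a ratio of counts per library total of 22.3 with an exact 95% interval of 3.60 to 918 that covers counting error only. Its fitted difference was called (adjusted p = 0.00846), at 4.04 on the log2 scale and 5.89 without WT control replicate 2. With etoposide ITGAD had 7, 0 and 1 counts in WT and 12, 21 and 29 in ATRX_KO (log2 difference 2.60, adjusted p = 0.00632), and 4.78 without WT etoposide replicate 1. In the DAXX series, where it was not tested, it had 0, 0 and 0 counts in WT and 5, 3 and 4 in DAXX_KO. With etoposide the counts of ITGAD in that series came to 8 in all in WT and 31 in all in DAXX_KO. ITGAM had 0, 0 and 1 counts in WT control libraries of the ATRX series and 21, 18 and 11 with etoposide, a ratio of 58.3 (exact interval 9.9998 to 2349, adjusted p = 1.87e-05), and 0, 0 and 0 against 15, 26 and 19 in ATRX_KO, at least 5.997-fold higher against the floor of 3 counts per library (adjusted p = 1.46e-05). The fitted WT response was 5.40, or 7.24 without WT control replicate 3. The beta chain ITGB2 had 0 to 3 counts in control libraries, at or under the floor, and 2 to 14 with etoposide, at most 1.06 CPM. ITGB2 was not tested in either series. The leukocyte markers CD3E and SPI1 never passed 3 counts.

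ITGAE was lower in ATRX_KO, at 16.9, 14.9 and 17.4 CPM against 30.7, 33.7 and 28.7 CPM in WT (log2 difference −0.92, SE 0.12, adjusted p = 8.47e-06). With etoposide it was at 17.7, 13.5 and 14.0 CPM against 34.9, 40.6 and 35.5 CPM, a log2 difference of −1.30 (SE 0.12, adjusted p = 1.58e-07). In DAXX_KO, at 28.9, 30.7 and 31.4 CPM against 39.2, 31.4 and 28.6 CPM, the ranges overlapped (log2 difference −0.13, adjusted p = 0.420), and the knockouts differed by 0.80 (SE 0.18, adjusted p = 0.00108). HASPIN, a mitotic kinase gene within ITGAE, differed by −1.42 in ATRX_KO and −1.39 in DAXX_KO. ITGAL was at 3.51 to 8.29 CPM over all libraries. Its 1 call, a rise of 0.52 with etoposide in ATRX_KO (adjusted p = 0.0473), was lost in 10 of 12 fits without 1 library (0.33 to 0.73). ITGA2B, the platelet chain, had 0 to 16 counts in a library. Its WT rise in the ATRX series under etoposide, from 4, 8 and 3 counts to 13, 8 and 13 (log2 difference 1.38, adjusted p = 0.0419), was lost with DESeq2 (1.40), no filter (1.34) and in 7 of 12 fits without 1 library (1.13 to 1.89). ITGA4 had at most 1 count and ITGA9 at most 4 counts in a library.

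ITGB1 encodes the beta chain shared by most matrix-binding integrins. It fell with etoposide in all cell groups, and less in the knockouts. In WT of the DAXX series it went from 423, 425 and 423 CPM to 142, 140.5 and 144 CPM, and in DAXX_KO from 511, 514 and 492 CPM to 368, 354 and 359 CPM. In WT of the ATRX series it went from 428, 414 and 394 CPM to 145, 142 and 141 CPM, and in ATRX_KO from 329, 347 and 366 CPM to 184, 196 and 206 CPM. No etoposide library overlapped the control libraries of its cells. The log2 responses were −1.58 (SE 0.06, adjusted p = 8.79e-15) and −1.53 (SE 0.07, adjusted p = 1.23e-11) in WT, −0.49 (SE 0.05, adjusted p = 2.08e-07) in DAXX_KO and −0.83 (SE 0.07, adjusted p = 4.40e-08) in ATRX_KO. The interactions were 1.09 (SE 0.08, adjusted p = 2.66e-08) and 0.70 (SE 0.10, adjusted p = 2.00e-04), and leaving out single libraries gave 1.06 to 1.10 and 0.66 to 0.75. With etoposide ITGB1 was thus higher than in WT by 1.34 in DAXX_KO (adjusted p = 6.47e-13) and by 0.45 (adjusted p = 5.66e-05) in ATRX_KO. In control cells it was higher by 0.26 in DAXX_KO (adjusted p = 4.32e-04) and lower by 0.25 on the log2 scale in ATRX_KO (adjusted p = 0.00819), which was not called without WT control replicate 1 (−0.21). The difference between the knockouts was 0.51 (SE 0.08, adjusted p = 1.41e-05).

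ITGB3, ITGB5, ITGB6 and ITGB8 pair with ITGAV and take part in binding RGD ligands or releasing active TGF-beta. ITGB3 rose in both knockouts, more in ATRX_KO. It was at 3.67, 4.26 and 3.84 CPM in WT and 8.996, 6.33 and 7.22 CPM in DAXX_KO (log2 difference 0.94, SE 0.22, adjusted p = 0.00133), and at 3.81, 3.40 and 4.40 CPM in WT and 14.4, 14.9 and 17.6 CPM in ATRX_KO (2.01, SE 0.15, adjusted p = 1.46e-08). The difference between the knockouts was −1.07 (SE 0.25, adjusted p = 0.00167). With etoposide ITGB3 was at 2.89, 1.67 and 3.11 CPM in WT and 8.65, 8.18 and 10.3 CPM in DAXX_KO, and at 3.61, 3.25 and 3.71 CPM in WT and 20.2, 17.8 and 18.0 CPM in ATRX_KO. These log2 differences were 1.83 and 2.40 (adjusted p = 2.15e-06 and 2.51e-09). ITGB6 was near the floor in control cells, with 10 and 11 counts per group in WT, 7 in DAXX_KO and 9 in ATRX_KO, and rose with etoposide to 2.01, 2.14 and 2.97 CPM in WT of the DAXX series and 5.48, 2.38 and 4.59 CPM in DAXX_KO. For the ATRX series it rose to 5.64, 3.53 and 5.02 CPM in WT and 2.85, 2.53 and 1.51 CPM in ATRX_KO. The responses on the log2 scale were 2.64, 3.75, 3.93 and 3.13 in that order of groups (adjusted p = 4.71e-04, 1.33e-05, 2.67e-06 and 1.15e-04), with 3.26 in WT of the DAXX series without control replicate 1 and 4.10 in ATRX_KO without control replicate 1. With etoposide ITGB6 was lower in ATRX_KO than in WT (−1.05, adjusted p = 0.0303), a call lost in 4 of 12 fits without 1 library (−1.22 to −0.81).

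ITGB8 rose in both knockouts in control cells and fell with etoposide. It was at 4.16, 3.80 and 5.65 CPM in WT and 8.75, 8.58 and 6.98 CPM in DAXX_KO (log2 difference 0.84, adjusted p = 0.00243), and at 5.44, 4.67 and 4.91 CPM in WT and 9.39, 8.28 and 9.53 CPM in ATRX_KO (0.85, adjusted p = 5.85e-04). With etoposide it was at 2.92, 4.04 and 3.81 CPM in DAXX_KO and 4.10, 4.48 and 4.45 CPM in ATRX_KO, responses of −1.16 and −1.06 (adjusted p = 1.502e-04 and 6.32e-05), and at 2.59, 3.06 and 2.21 CPM in WT of the ATRX series (−0.93, adjusted p = 4.67e-04). In WT of the DAXX series the response of −0.66 (adjusted p = 0.0247) was not called with DESeq2 (−0.63), with no filter (−0.67), without control replicate 3 (−0.48), or without etoposide replicate 1 (−0.67) or 2 (−0.59). ITGB5 fell with etoposide in all 4 cell groups, from 116, 119.7 and 123 CPM to 65.8, 65.7 and 59.2 CPM in WT of the DAXX series and from 132, 126 and 101 CPM to 88.3, 90.4 and 97.2 CPM in DAXX_KO, an interaction of 0.53 (SE 0.12, adjusted p = 0.00674). Its ATRX-series responses were −0.82 in WT and −0.65 in ATRX_KO, with no interaction called. ITGB4, the partner of ITGA6 in hemidesmosomes, was at 0.841 to 1.15 CPM in WT and 1.93 to 3.03 CPM in DAXX_KO (log2 difference 1.25, adjusted p = 0.0209), a call lost without WT control replicate 3 (1.13) or DAXX_KO control replicate 2 (1.09). In ATRX_KO it stood at −0.02 (adjusted p = 0.976). GALK1, which overlaps ITGB4, differed by 0.34 in DAXX_KO and −0.79 in ATRX_KO. ITGB7 had 0 to 13 counts in a library.

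Among the laminin alpha chains, LAMA4 and LAMA1 rose and LAMA2 fell in both knockouts, and LAMA3 and LAMA5 rose in DAXX_KO. LAMA4, a chain of vessel and nerve laminins, was at 24.6, 24.4 and 23.5 CPM in WT and 56.6, 57.8 and 53.2 CPM in DAXX_KO (log2 difference 1.21, SE 0.10, adjusted p = 8.95e-09). It was at 32.0, 27.9 and 28.7 CPM in WT and 53.7, 56.1 and 55.5 CPM in ATRX_KO (0.90, SE 0.10, adjusted p = 1.07e-06). With etoposide the differences were 0.87 and 0.96 (adjusted p = 1.41e-06 and 8.22e-07). LAMA5 was at 12.4, 13.1 and 12.01 CPM in WT and 34.5, 34.4 and 35.5 CPM in DAXX_KO (1.48, SE 0.11, adjusted p = 1.24e-09), and at 23.9, 22.7 and 22.5 CPM in WT and 14.4, 19.9 and 20.9 CPM in ATRX_KO (−0.32, adjusted p = 0.0659). The knockouts differed by 1.80 (SE 0.17, adjusted p = 6.79e-09), and the WT control libraries of the series themselves differed by −0.84 (DAXX series minus ATRX series, adjusted p = 9.11e-05). With etoposide LAMA5 was at 9.16, 12.3 and 10.3 CPM in WT and 25.8, 24.1 and 24.2 CPM in DAXX_KO (log2 difference 1.22, SE 0.12, adjusted p = 4.35e-08). The 3′ end of LAMA5 overlaps ADRM1 on the other strand, which differed by −0.54 in DAXX_KO and −0.23 in ATRX_KO.

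LAMA1, the chain of early embryonic basement membranes, had 11 counts in WT control libraries of the DAXX series and 6 in those of the ATRX series. It was at 0.694, 0.460 and 0 CPM in WT and 4.25, 2.38 and 3.01 CPM in DAXX_KO, and at 0.0778, 0.340 and 0.0847 CPM in WT and 3.48, 4.18 and 4.37 CPM in ATRX_KO. The log2 differences were 2.95 (SE 0.52, adjusted p = 8.46e-05) and 4.52 (SE 0.48, adjusted p = 9.42e-07), with 3.70 without WT control replicate 1 of the DAXX series and 5.46 without WT control replicate 2 of the ATRX series. Etoposide raised LAMA1 in WT, by 1.71 and 2.02 (adjusted p = 0.0170 and 0.00855), to 0.833 to 1.89 and 0.382 to 1.02 CPM, and its response was not called in DAXX_KO (−0.13) or ATRX_KO (−0.41). The WT calls were lost without DAXX series control replicate 3 (1.19) or etoposide replicate 3 (1.42), and without ATRX series etoposide replicate 1 (1.63), and the responses were 2.46 without DAXX series control replicate 1 and 2.95 without ATRX series control replicate 2. With etoposide LAMA1 was still higher in ATRX_KO, at 2.85, 3.90 and 2.26 CPM against 1.02, 0.382 and 0.703 CPM in WT (log2 difference 2.08, SE 0.39, adjusted p = 3.66e-04). The interaction of the ATRX series was −2.44 (adjusted p = 0.0239), lost in 4 of 12 fits without 1 library (−3.37 to −2.04).

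LAMA3, the alpha chain of the laminin of epithelial basement membranes, had 0, 2 and 1 counts in WT of the DAXX series and was at 2.87, 1.98 and 1.68 CPM in DAXX_KO, 52 counts in all. The ratio of counts per library total was 19.7, with an exact 95% interval of 6.37 to 98.4, and the fitted log2 difference of 4.12 (adjusted p = 1.17e-05) moved to 3.52 when WT control replicate 1 was left out and to 4.98 when replicate 2 was. With etoposide LAMA3 was at 0.878, 0.476 and 1.08 CPM in WT and 2.56, 2.59 and 3.02 CPM in DAXX_KO (log2 difference 1.74, adjusted p = 0.00192). Its rise with etoposide in WT, 19 against 3 counts, was a ratio of 7.22 (exact interval 2.13 to 38.1, adjusted p = 0.00311), with fitted values of 2.10 and 3.56 without WT control replicates 1 and 2. LAMA3 in the ATRX series was at 0.167 to 0.905 CPM and not tested, and in the fit of all libraries the knockouts differed by 4.70 (SE 0.84, adjusted p = 7.31e-05), with 4.08 and 5.57 without WT control replicates 1 and 2 of the DAXX series. LAMA2, the muscle and nerve chain, was at 2.48, 1.497 and 2.28 CPM in WT and 0.750, 1.06 and 1.20 CPM in DAXX_KO (−1.05, adjusted p = 0.0334), a call lost with DESeq2 (−1.10), library totals (−0.87) and 4 of 12 fits without 1 library (−1.24 to −0.88). In ATRX_KO it was at 0.348, 0.335 and 0.477 CPM against 1.94, 1.78 and 1.36 CPM (−2.10, SE 0.42, adjusted p = 6.72e-04), and etoposide raised it there to 0.979, 1.08 and 1.21 CPM (1.47, adjusted p = 0.0104). In WT it was then at 2.22, 4.49 and 2.61 CPM, so LAMA2 stayed lower in ATRX_KO with etoposide (log2 difference −1.50, SE 0.34, adjusted p = 0.00187).

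LAMB3, the beta chain that partners LAMA3, showed the largest rise in DAXX_KO among members with over 10 CPM in WT. It was at 14.7, 13.6 and 13.0 CPM in WT and at 175, 172 and 149.6 CPM in DAXX_KO, with no overlap and a log2 difference of 3.59 (SE 0.10, adjusted p = 2.62e-15). For the ATRX series it was at 18.8, 15.02 and 15.2 CPM in WT and 18.8, 28.3 and 26.5 CPM in ATRX_KO. These ranges overlapped, and the log2 difference was 0.58 (SE 0.16, adjusted p = 0.00826). The knockouts differed by 3.01 (SE 0.20, adjusted p = 9.13e-12). With etoposide LAMB3 fell in DAXX_KO to 65.9, 78.4 and 64.4 CPM (−1.25, SE 0.09, adjusted p = 4.11e-10) and was at 12.3, 14.4 and 13.8 CPM in WT (−0.03), an interaction of −1.22 (SE 0.15, adjusted p = 2.54e-05). It was still higher in DAXX_KO than in WT by a log2 difference of 2.37 (adjusted p = 1.94e-12). In WT of the ATRX series it rose to 29.5, 26.4 and 31.6 CPM (0.83, adjusted p = 2.90e-04) and in ATRX_KO stood at 19.7, 28.0 and 27.9 CPM (0.04), an interaction of −0.79 (adjusted p = 0.0256) that was lost in 5 of 12 fits without 1 library (−0.95 to −0.64). The 4 epithelial markers (EPCAM, CDH1, KRT5 and KRT14) summed to 0.297 to 0.721 CPM in WT control libraries of the DAXX series and 0.481 to 1.45 CPM in DAXX_KO. KRT5 and KRT14 never passed 3 counts in a library of that series, CDH1 had at most 1 count in a WT control library and up to 6 in DAXX_KO, and EPCAM had up to 5 and up to 10. The part of these markers in the LAMB3 difference was not tested.

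LAMB1, LAMB2 and LAMC1 are chains of the widespread laminins. LAMB1 fell with etoposide, less in the knockouts, as ITGB1 did. It went from 107, 105 and 122 CPM to 37.02, 39.8 and 38.2 CPM in WT of the DAXX series and from 120.3, 115 and 95.1 CPM to 62.1, 80.0 and 76.6 CPM in DAXX_KO. In the ATRX series it went from 121, 104 and 101 CPM to 43.7, 43.4 and 42.0 CPM in WT and from 93.5, 108 and 88.8 CPM to 42.6, 60.8 and 65.2 CPM in ATRX_KO. The responses were −1.53 and −1.33 in WT (adjusted p = 2.20e-10 and 1.12e-07), −0.59 in DAXX_KO and −0.78 in ATRX_KO. The interaction was 0.94 in the DAXX series (SE 0.15, adjusted p = 2.07e-04). For the ATRX series it was 0.55 (SE 0.18, adjusted p = 0.0442), lost in 9 of 12 fits without 1 library (0.43 to 0.72). The 3′ end of LAMB1 overlaps DLD, which responded to etoposide by −0.42 and −0.66 in WT of the DAXX and ATRX series.

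LAMB2 rose in the knockouts and with etoposide. It was at 6.44, 9.44 and 6.49 CPM in WT and 23.9, 26.1 and 26.2 CPM in DAXX_KO (1.77, SE 0.13, adjusted p = 1.87e-09), and at 10.3, 8.83 and 13.5 CPM in WT and 16.1, 15.4 and 14.1 CPM in ATRX_KO (0.49, adjusted p = 0.0115), which was not called without WT control replicate 2 (0.36). The knockouts differed by 1.29 (SE 0.20, adjusted p = 1.24e-05). With etoposide it went to 13.9, 14.6 and 14.5 CPM in WT (0.95, adjusted p = 1.21e-05) and 39.2, 34.4 and 36.1 CPM in DAXX_KO (0.52, adjusted p = 5.84e-04), and to 23.1, 25.6 and 23.2 CPM in WT (1.14, adjusted p = 2.02e-06) and 24.1, 28.0 and 29.6 CPM in ATRX_KO (0.84, adjusted p = 5.65e-05), with no interaction called. Under etoposide LAMB2 was higher in DAXX_KO than in WT by 1.35 (adjusted p = 1.99e-08) and was not called in ATRX_KO (0.19). LAMC1 was higher in DAXX_KO, at 128, 123 and 135 CPM against 92.6, 89.3 and 84.6 CPM (0.54, SE 0.07, adjusted p = 2.79e-06), and in ATRX_KO stood at 106, 93.4 and 105 CPM against 101, 90.1 and 92.3 CPM (0.10, adjusted p = 0.373), a difference between the knockouts of 0.44 (adjusted p = 0.00209). It fell with etoposide in WT of the DAXX series and in both knockouts (−0.39, −0.60 and −0.33). LAMC3, the gamma chain of some neural laminins, had 0 counts in the 3 WT control libraries of the DAXX series and 7, 9 and 3 with etoposide, and 0, 1 and 0 against 9, 6 and 10 in the ATRX series, and was not tested. LAMB4 had at most 9 counts in a library.

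Smaller calls of members were as follows. Compared with WT after etoposide, ITGA1 was lower by 0.66 on the log2 scale in DAXX_KO and 0.52 in ATRX_KO and ITGA3 by 0.54 and 0.37, and ITGA5 was higher by 0.62 and 0.91. ITGB5 (0.53), LAMB1 (0.93) and LAMC1 (0.33) were higher in DAXX_KO and ITGB8 (0.73) in ATRX_KO. LAMA4 fell with etoposide in both knockouts (−0.55 in DAXX_KO and −0.46 in ATRX_KO) and in WT of the ATRX series (−0.52), and LAMA5 in DAXX_KO (−0.49) and in WT of the ATRX series (−0.52). These calls were kept whichever library was left out. Other calls were lost in some of those fits. Under etoposide, WT of the DAXX series had lower ITGB3 (−0.63, lost in 4 of 12 fits without 1 library, −0.79 to −0.39) and lower ITGA11 (−0.56, lost without control replicate 2 or etoposide replicate 3, −0.63 to −0.41). For WT of the ATRX series, ITGA1 was higher by 0.25 (lost in 4 of 12 fits, 0.18 to 0.29) and LAMA2 by 0.87 (lost in 3 of 12, 0.49 to 1.04). Compared with WT after etoposide, LAMA1 was higher by 1.11 in DAXX_KO (lost in 5 of 12, 0.84 to 1.40), and ITGA7 by 0.22 (lost in 3 of 12, 0.20 to 0.28) and LAMB1 by 0.39 (lost in 2 of 12, 0.27 to 0.55) in ATRX_KO. With no filter on low counts, those of ITGB3 (−0.64), ITGA1 (0.20), LAMA2 (0.83) and ITGA7 (0.23) were lost as well.

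**Figure D3:**
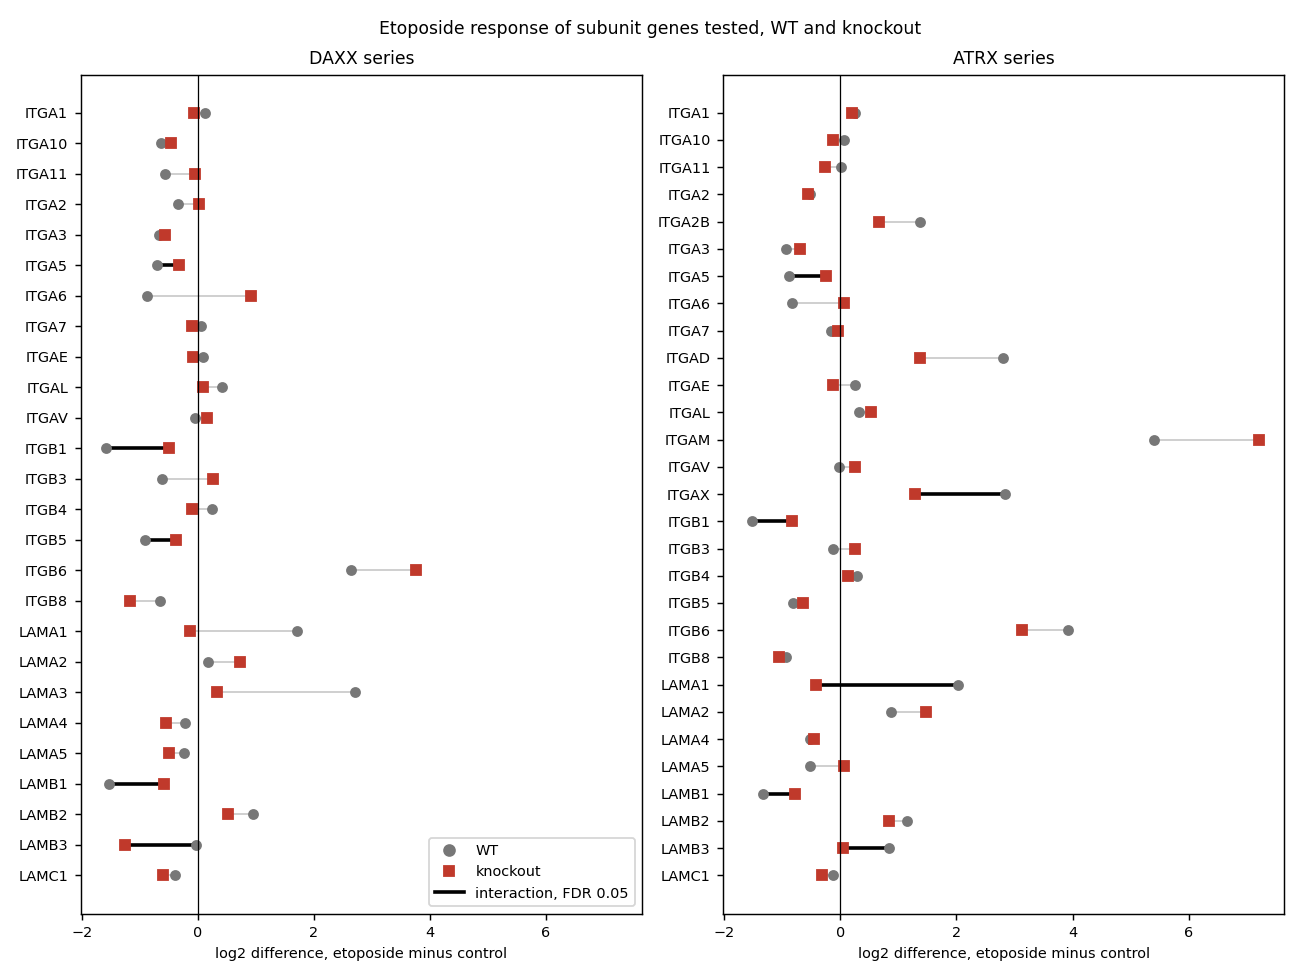
Log2 response to etoposide (x axis) of members tested (rows) in the DAXX series (left) and ATRX series (right), with grey circles for WT and red squares for the knockout; a thick black line joins them where the interaction passed an FDR of 0.05 and a thin grey line where it did not. ITGB1, LAMB1 and ITGA5 sit to the left of 0 with the knockout nearer to 0 in both series. The ITGAM and ITGAD points, and some points of ITGAX, ITGB6, LAMA1 and LAMA3, rest on few control counts.

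WT control libraries were also compared between the series, each with its own WT libraries, so what differs between the series in culture or library preparation cannot be told apart. Of 32 members tested, 8 were called, 1 higher and 7 lower in the DAXX series, where 13.2% of all genes were called (6.01% higher and 7.22% lower). The count was 4 without DAXX series replicate 1 or ATRX series replicate 1 and 3 without DAXX series replicate 3. LAMA5 (−0.84), ITGA2 (−0.52) and ITGA7 (−0.38) were called whichever library was left out.

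The knockout difference of each member was also set beside that of the genes around it on the chromosome. The median difference of the 60 nearest tested genes was −0.60 in DAXX_KO and −0.45 in ATRX_KO around ITGA3, beside −0.65 and −0.62 for ITGA3 itself. Around LAMB3 the neighbours stood at −0.78 and −0.60, opposite to LAMB3. Around ITGB1 they stood at 0.56 in DAXX_KO, so ITGB1, at 0.26, was lower than its neighbours by 0.30 on the log2 scale, and its direction turned when the neighbours' median was subtracted. Around ITGA2 and ITGA1 they stood at −0.36 in DAXX_KO, beside −2.00 for ITGA2 and −0.47 for ITGA1. The neighbours of ITGAE stood at −0.32 in ATRX_KO, beside −0.92 for ITGAE. Those of ITGB4 stood at −0.67 in DAXX_KO, where ITGB4 itself was at 1.25. ITGA6 was lower than all 60 neighbours in both knockouts, and LAMB3 and ITGA11 in DAXX_KO and ITGAX, ITGB3 and LAMA1 in ATRX_KO were higher than all of theirs.

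**Figure D4:**
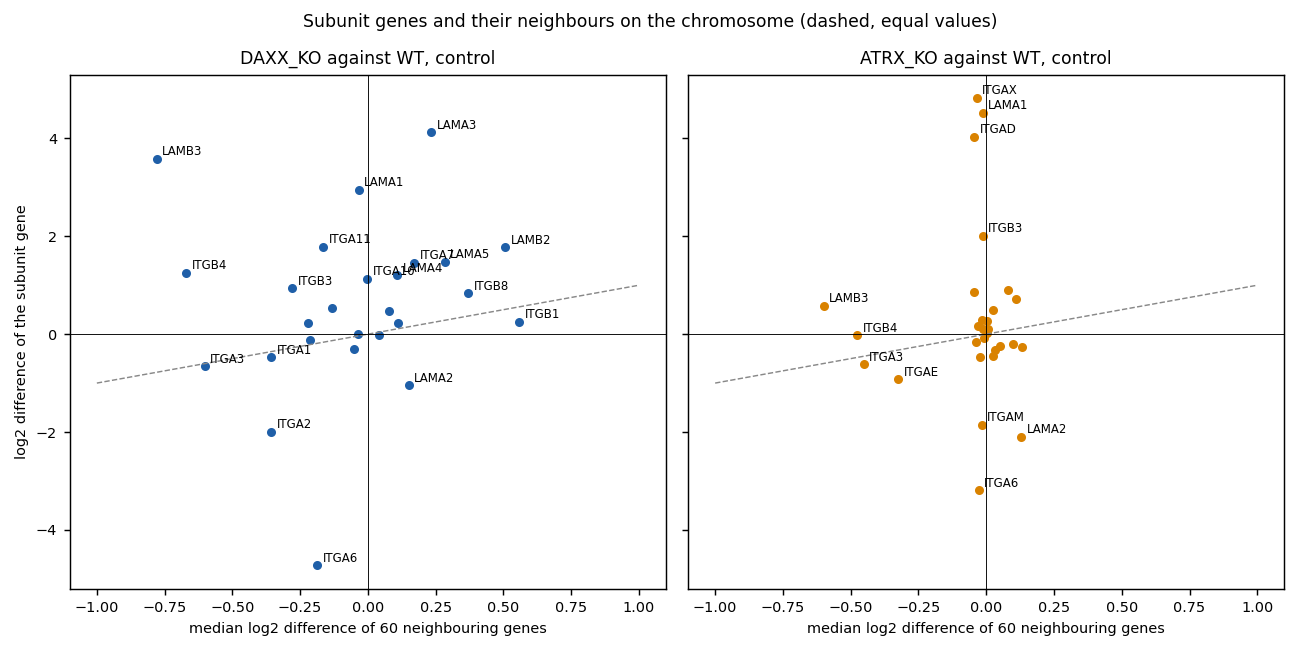
Log2 difference of members tested (y axis) against the median log2 difference of its 60 nearest tested genes (x axis), for DAXX_KO (left) and ATRX_KO (right) against WT in control cells; the dashed line marks equal values. ITGA3 lies close to the line in DAXX_KO, while LAMB3, LAMA1 and ITGA6 lie far from it.

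The genes that integrins and laminins work with were counted from 4 lists. Of 30 genes of the adhesion complex, the talins, kindlins, kinases and actin linkers behind integrins, 26 were tested in the DAXX series, and 20 were called in DAXX_KO, 10 higher and 10 lower, beside 53.4% of all genes. In ATRX_KO 14 of 27 were called, 6 higher and 8 lower, beside 41.8%. TLN2, a talin, differed by −1.33 and −1.51 (adjusted p = 6.53e-10 and 1.96e-07), ILK by −0.52 and −0.86, TNS3 by −0.82 and −1.01 and PXN by −0.51 and −0.49. Under etoposide 18 of 26 were called in WT of the DAXX series, 4 higher and 14 lower, and 20 of 27 in the ATRX series, 4 higher and 16 lower, beside 60.2% and 61.5% of all genes. The list medians were −0.27 and −0.35, beside 0.02 and 0.07 over all genes. ACTN1 responded by −1.22 and −1.22, PTK2, the focal adhesion kinase, by −1.24 and −1.16, ACTN4 by −1.11 and −1.20 and ILK by −1.10 and −1.28. Interactions were called for 5 of 26 genes in the DAXX series, all higher, and 9 of 27 in the ATRX series, 7 higher and 2 lower, beside 14.2% and 16.0% of all genes. TLN2 (1.33 and 0.64), ILK (0.72 and 0.64), ACTN1 (0.90 and 0.61) and ITGB1BP1 (0.53 and 0.42) were called in both, with the same sign as ITGB1 and LAMB1. TLN2, ILK and ITGB1BP1 (−0.39 and −0.44) were already lower than WT in control cells of both knockouts, while ITGB1 was lower in ATRX_KO and higher in DAXX_KO. Whether the level in control cells bears on these interactions was not tested.

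Of 15 laminin partners, the dystroglycan, its glycosylation enzymes and basement membrane proteins, 13 were tested, with 8 called in DAXX_KO, 7 higher and 1 lower, and 6 in ATRX_KO, 3 higher and 3 lower. The shares of all genes were 53.4% and 41.8%, and the lists were not tested against them. POMT2, an enzyme that prepares dystroglycan for laminin, differed by 0.44 in DAXX_KO and 0.46 in ATRX_KO, and POMGNT1, of the same glycan pathway, by −0.38 and −0.41. With etoposide HSPG2, the perlecan gene, responded by 2.20 and 2.72 and DAG1, the dystroglycan gene, by −1.27 and −1.30 in WT. Of 30 integrin ligands, 14 of 17 tested were called in DAXX_KO, 9 higher and 5 lower, and 13 of 20 in ATRX_KO, 6 higher and 7 lower, beside the same 53.4% and 41.8%. THBS1, the thrombospondin bound by ITGAV and ITGA3 integrins, differed by −4.09 and −5.28 (adjusted p = 2.62e-15 and 2.46e-14), FBLN1 by −2.81 and −2.95, SPP1, the osteopontin gene, by 2.79 and 3.12 and THBS2 by 5.37 and 1.61. With etoposide LTBP1, which holds latent TGF-beta, responded by −2.18 and −2.12, SPP1 by 1.82 and 2.47, TGFB3 by 2.10 and 2.25 and THBS2 by 2.03 and 1.93. Of 6 hemidesmosome genes, 4 were tested, with 2 called in DAXX_KO and 4 in ATRX_KO, too few to set beside those shares. CD151, a tetraspanin of laminin receptors, differed by 0.48 and 0.43, and DST by −0.17 and −0.32. With etoposide all 4 were called in WT of both series, where 60.2% and 61.5% of all genes were, DST at −1.10 and −0.79, COL17A1 at 0.73 and 1.97, PLEC at −0.57 and −0.95 and CD151 at 0.48 and 0.30.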

How the data were processed

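RNA-seq libraries of U87-T cells were made with a QuantSeq 3′ mRNA kit. The authors aligned reads to hg19 with STAR and deposited estimated counts per gene from RSEM (version 1.2.3 in the submitters' processing notes, another in the study's methods), stored as whole numbers and not normalized. Groups came from the sample titles. One label field of the DAXX_KO samples gives an ATRX genotype; their titles were followed. Etoposide dose and time for these libraries are not given in the sources used here.

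Symbols and positions came from GENCODE release 44 on GRCh37, which matched 55501 of 57736 gene IDs and 98.8% of counts. The 12 libraries of a series were fitted together in edgeR 4.0.16 (R 4.3.3) by the quasi-likelihood test, with TMM scaling and filterByExpr (minimum count 10, minimum total 15), which left 15247 and 16371 genes, and 16674 genes in a model of all 24 libraries for contrasts between series. P-values were adjusted by Benjamini-Hochberg over all genes tested. The fit was tested on simulated data with 200 genes changed by 1 on the log2 scale, of which 165 and 159 were recovered for the knockout effect and 141 and 130 for the interaction (DAXX and ATRX series). False calls were 8 and 6 for the knockout effect and 4 and 2 for the interaction. The simulation gave every gene the same spread, lower than the common value fitted to the ATRX series, so recovery in the real data may be lower. Members called with an absolute log2 difference of at least 1, or in an interaction or between the knockouts, are given by library, and list genes are at most 4 per list and comparison with the largest difference in both series. The members and lists were chosen with earlier results of these data known. Replicate chi-square per degree of freedom was 2.16 to 17.1 over 24 pairs. Alternatives were RLE size factors, library totals, DESeq2 1.42.0, no filter, 10 counts in every library, a replicate block, only the compared groups, all 24 libraries, leaving out each library, and subtracting the median of 30 neighbouring genes on each side. A few genes that enter the counts are not reported here by name. Protein sequences and other assays of the study were not used here. Figures were drawn with matplotlib 3.10.9.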

Additional observations from a re-analysis of the deposited data

Results flagged for a closer look

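The response to etoposide differed between knockout and WT by the interaction test for 5 members in the DAXX series, where 14.2% of all genes were called. The knockout response minus the WT response on the log2 scale was 1.09 for ITGB1, 0.94 for LAMB1, 0.53 for ITGB5, 0.38 for ITGA5 and −1.22 for LAMB3. In the ATRX series 7 members were called, beside 16.0% of all genes, with values that include 0.70 for ITGB1, 0.64 for ITGA5, 0.55 for LAMB1, −0.79 for LAMB3, −1.55 for ITGAX and −2.44 for LAMA1. ITGA5, ITGB1, LAMB1 and LAMB3 were called in both series in the same direction, as were 5.55% of all genes tested in both. Of these members, only ITGB1 kept the call in both series whichever library was left out. When single libraries were left out, the call was lost in 6 of 12 fits for ITGA5 in the DAXX series, and in 9 of 12 for LAMB1 and 5 of 12 for LAMB3 in the ATRX series.

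The knockout difference in control cells differed between DAXX_KO and ATRX_KO for 13 members, tested in the model of all libraries. As DAXX_KO minus ATRX_KO, the values included 4.70 for LAMA3, 3.01 for LAMB3, 2.24 for ITGA11, 1.80 for LAMA5, 1.35 for ITGA7, 1.29 for LAMB2, 0.80 for ITGAE, 0.51 for ITGB1 and 0.44 for LAMC1. Lower ones were −1.07 for ITGB3, −2.17 for ITGA2 and −3.37 for ITGAX. The ITGAX value turned to 0.33 without WT control replicate 1 of the DAXX series, which held all 4 WT control counts of that series. The lines are single clones, so the targeted gene and the clone cannot be told apart in these differences.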

How the results depend on the processing

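Of 172 called member differences, 137 were called under every alternative in which they were tested, and 34 lost the call under at least 1. Another 2, of ITGAX and ITGB1, turned direction. ITGB1 is also among the 137, as it turned only when its neighbours' median was subtracted, which gives no call. Not every difference was tested under every alternative. With 10 counts in every library, 129 kept the call and 1 lost it, and the rest were not tested. Subtracting the neighbours' median moved 12 of the called knockout differences of control cells and left 23 about the same, and ITGB1 in DAXX_KO turned to −0.30. The ITGAX difference between the knockouts ranged from −4.00 to 0.33 when single libraries were left out. The counts of members called ranged from 3 to 8 for the interaction of the ATRX series and from 3 to 7 between the WT controls of the series when single libraries were left out. Same-numbered libraries of a series had correlations of their deviations from −0.33 to 0.083, so the numbers were not taken as pairs. With the replicate block, 6 of 172 calls were lost, LAMA2 in DAXX_KO control cells (−1.03), LAMA1 in DAXX_KO with etoposide (1.13), the ATRX interaction of LAMB1 (0.55), and the WT etoposide responses of ITGA6 in the DAXX series (−0.89) and of ITGA2B (1.42) and LAMA2 (0.84) in the ATRX series. The laminin partners called, 2 for the DAXX interaction and 1 between WT controls, were 0 and 0 with the block and 1 and 0 with DESeq2, and the hemidesmosome genes called in DAXX_KO went from 2 to 1 with the block. DESeq2 lost 8 member calls and no filter on low counts 10. The causes were not tested. Members under about 1 CPM in WT rest on few counts, so their folds are the least certain, and depth limits ITGA4, ITGA8, ITGA9, ITGB2, ITGB7, LAMB4 and LAMC3 to counts alone.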
